A study of Mus musculus with 4 samples.

Results

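The subject is the coatomer, the protein coat of COPI transport vesicles, in cultured mouse molar tooth germs exposed to the dioxin TCDD (2,3,7,8-tetrachlorodibenzo-p-dioxin). The set comprised every probe set of the array with 1 gene symbol among the 9 coatomer genes Copa, Copb1, Copb2, Copg1, Copg2, Cope, Copz1, Copz2 and Arcn1. It held 13 probe sets of 8 genes, out of 12488 probe sets in the series. For Copg2 no probe set carried its symbol alone, so its expression was not analysed here. The set was taken up because 1 probe set of Copb2 was lower on both TCDD arrays than on both DMSO arrays, and the question is whether the other subunits follow it. The set was thus selected on the TCDD-DMSO signals of Copb2, so the values of Copb2 are given as a description with no test. The other subunits entered as parts of the same complex.

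Mandibular molar regions of NMRI mouse embryos at embryonic day 14, at about the cap stage of tooth development, were kept for 24 h in organ culture with 1 µM TCDD or with the solvent DMSO at 0.65%. There were 2 arrays in the TCDD group and 2 in the DMSO group, each hybridised with RNA pooled from about 60 explants of 3 experiments, so that no array stands for a single embryo. All explants came from this outbred strain and grew in medium with fetal calf serum, with ascorbic acid listed for DMSO replicate 2 alone. In each group 11 µg of RNA was labelled for replicate 1, and for replicate 2 it was 8 µg with TCDD and 7 µg with DMSO.

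Coatomer is recruited from the cytosol to Golgi membranes by the small GTPase Arf1, and the coated vesicles carry escaped endoplasmic reticulum proteins and recycling receptors back from the Golgi. The alpha, beta-prime and epsilon subunits (Copa, Copb2, Cope) form the outer part of the coat, and the beta, gamma, delta and zeta subunits (Copb1, Copg1 or Copg2, Arcn1, Copz1 or Copz2) form the inner part, which resembles the clathrin adaptors. In secretory tissues such as tooth and bone this traffic keeps the Golgi working during export of collagen and other matrix proteins. TCDD acts on genes mainly through the aryl hydrocarbon receptor, whose DNA-bound form recognises sites with the core letters GCGTG.

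The 300 bases around the start of each gene (250 before and 50 after it, from RefSeq, build GRCm38.p6) were searched for GCGTG on both strands. A window was given for 8 of the 9 genes, with none for Arcn1, and GCGTG occurred in 3 of them, those of Copg1, Copg2 and Copz2, against 32.4% of all 32851 windows of that length. The window of Copb2 is shown because Copb2 gave rise to the question, and those of Copg1 and Copz2 because they hold the letters among the genes measured. Capitals mark GCGTG or its reverse complement.
Copb2, chr9:98563481-98563780, plus strand: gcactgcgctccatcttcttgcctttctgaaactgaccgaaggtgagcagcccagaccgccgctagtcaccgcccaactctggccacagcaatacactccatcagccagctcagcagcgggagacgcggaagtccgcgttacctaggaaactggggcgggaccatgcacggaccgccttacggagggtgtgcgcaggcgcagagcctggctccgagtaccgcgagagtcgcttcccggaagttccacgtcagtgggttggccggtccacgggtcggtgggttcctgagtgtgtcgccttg
Copg1, chr6:87887690-87887989, plus strand: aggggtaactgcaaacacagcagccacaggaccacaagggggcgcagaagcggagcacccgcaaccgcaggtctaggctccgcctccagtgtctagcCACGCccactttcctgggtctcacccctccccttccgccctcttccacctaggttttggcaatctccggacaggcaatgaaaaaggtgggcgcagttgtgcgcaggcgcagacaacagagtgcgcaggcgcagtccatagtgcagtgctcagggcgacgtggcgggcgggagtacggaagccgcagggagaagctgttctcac
Copz2, chr11:96849626-96849925, plus strand: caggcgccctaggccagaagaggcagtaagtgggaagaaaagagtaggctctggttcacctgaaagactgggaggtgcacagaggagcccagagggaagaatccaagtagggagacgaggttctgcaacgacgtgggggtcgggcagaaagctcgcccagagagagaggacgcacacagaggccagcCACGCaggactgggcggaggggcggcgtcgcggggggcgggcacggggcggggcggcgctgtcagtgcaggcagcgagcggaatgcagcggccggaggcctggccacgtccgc
Copg1 and Copz2 each held 1 match, on the reverse strand, and Copb2 held 0 in this window. The endoplasmic reticulum stress response element, CCAAT and CCACG with 9 bases between them on either strand, was found in 0 of the 8 windows and in 0.119% of all windows. A match describes letters and not a bound site, and no match speaks only for these windows.

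Cyp1a1, a cytochrome P450 gene and classical target of the receptor, rose with TCDD. At its brightest probe set signals were 194.8 and 210.5 on the TCDD arrays and 14.7 and 12.7 on the DMSO arrays. The log2 difference was 2.88 (limma adjusted p 3.68e-04). Both DMSO values were low and had been stored as calendar days, and the difference ran from 1.78 to 3.79 over the alternative settings. A second probe set, 161831_at, was dim, with means of 17.0 with TCDD and 18.1 with DMSO. Signals are MAS5 values scaled to a target of 100 per array, and log2 differences are of signal + 16, TCDD minus DMSO. They were fitted with limma over the 5783 probe sets whose signal averaged 50 or more, and 4 of these passed an adjusted p of 0.05 (0.0692%). Dental tissue markers were present: 7 of 10 listed genes of the dental epithelium and 9 of 11 of the dental mesenchyme reached that mean, with Msx1, a mesenchymal homeobox gene, between 540.6 and 705.0. The keratin genes Krt5 and Krt14 and the mesenchymal gene Pax9 fell below it, and no listed marker was at 0 on any array. The summed signal of the 7 epithelial markers was 4201 and 4672 on the TCDD arrays and 3067 and 4192 on the DMSO arrays. Both TCDD arrays were higher in 2 of these 7 and lower in 1. Summed over the 9 mesenchymal markers it was 2582 and 2959 with TCDD and 2425 and 2887 with DMSO. Among other cell types, the summed signal of 7 macrophage markers was 842 and 825 on the TCDD arrays and 643 and 598 on the DMSO arrays. Summed over 4 skeletal muscle markers it was 949 and 307 with TCDD and 680 and 270 with DMSO, high on replicate 1 of both groups. The part of these cell types in the coatomer values was not tested. In pools of whole tissue, fewer cells of a type and less RNA per cell cannot be told apart.

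Of the 13 coatomer probe sets, 10 reached the mean signal of 50 and entered the fit, among them at least 1 for each of the 8 genes. The other 3 were dim, 1 for Copz1 and 2 for Arcn1. Among the 8 tested probe sets of the 7 genes other than Copb2, 0 passed the limma test (0.0692% of all probe sets passed), and 0 had an unadjusted p under 0.05, against 150 of the 5783 tested. Their limma adjusted p was 0.997 in each case. The log2 differences ran from -0.22 to 0.10 with a median of 0.02, where the median over all probe sets tested was 0.01. Levels of different probe sets cannot be compared with each other, so each is set only against itself across arrays.

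**Figure D1:**
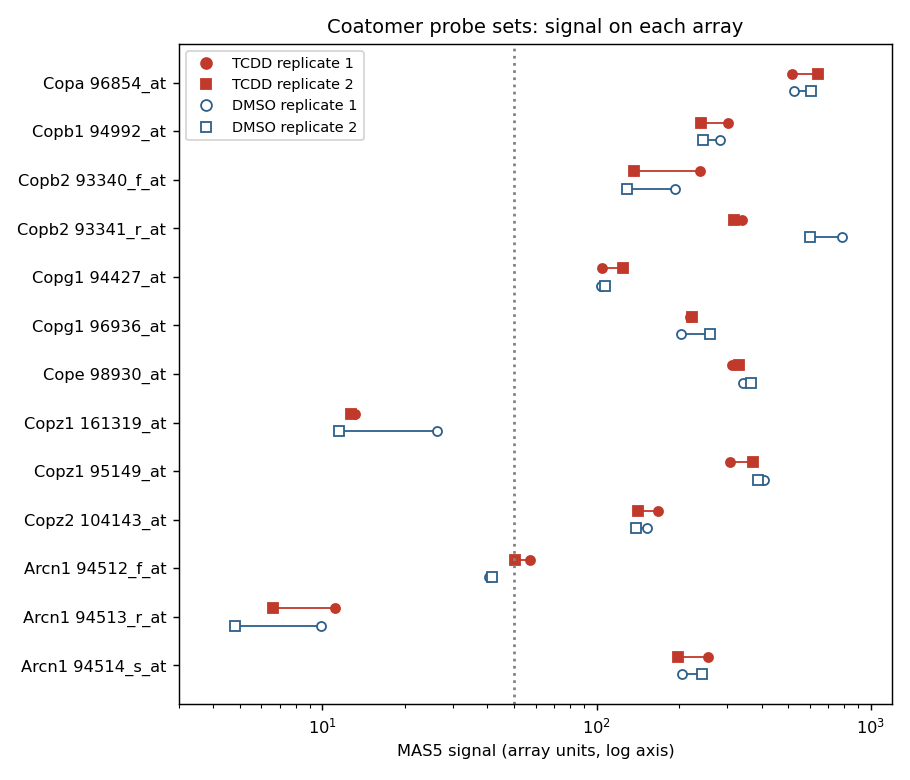
Signal of the 13 coatomer probe sets (rows) on each of the 4 arrays, on a log axis, with TCDD arrays as filled red marks above the DMSO arrays as open blue marks, circles for replicate 1, squares for replicate 2 and a line joining the 2 arrays of a group. The dotted line is the mean signal of 50 needed for the test. At Copb2 93341_r_at the TCDD arrays lie at 316.2 and 340.3, far below the DMSO arrays, while most other rows overlap.

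Copb2 encodes the beta-prime subunit, a propeller protein of the outer coat that binds the dilysine retrieval signals of cargo. Its probe set 93341_r_at had signals of 340.3 and 316.2 on the TCDD arrays and 788.0 and 601.9 on the DMSO arrays. The TCDD mean of 328 ± 17.0 was 47.2% of the DMSO mean of 695 ± 132 (SD, n = 2 each). The log2 difference was -1.03, and over the 4 array pairs it lay between -1.28 and -0.79. The TCDD arrays lay close together, and the DMSO arrays were further apart but did not reach down to them. Over the series, 3 probe sets (0.0519% of those tested) were lower by more than 1 on the log2 scale with groups that did not overlap, Copb2 being the set's own entry.

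The other probe set of the same gene, 93340_f_at, did not show this. Its signals were 238.8 and 136.8 on the TCDD arrays and 193.8 and 129.7 on the DMSO arrays, a log2 difference of 0.17. The groups overlapped, and within each group replicate 1 was the higher array. Both probe sets were made from the same GenBank record per the platform annotation. In Affymetrix naming, the ending _f_at marks probes shared by a family of similar sequences, and _r_at marks a probe set chosen with some design rules dropped. No probe sequences were used here, and which of the 2 follows the Copb2 transcript more closely was not tested.

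The gap between the log2 differences of these probe sets was 1.21. Across the series there were 108 pairs of tested probe sets that shared a gene and a GenBank record, with a median gap of 0.15 and a 90th percentile of 0.40. The gap of Copb2 was the highest of these 108. Over all 761 pairs of tested probe sets of 1 gene, whatever their record, the median gap was 0.18, and 3 pairs reached the gap of Copb2, those of Copb2, Ift46 and Cdkn1a. These figures are a description, since Copb2 was chosen for its difference. Within the coatomer, both probe sets of Copg1 lay 0.15 apart.

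**Figure D2:**
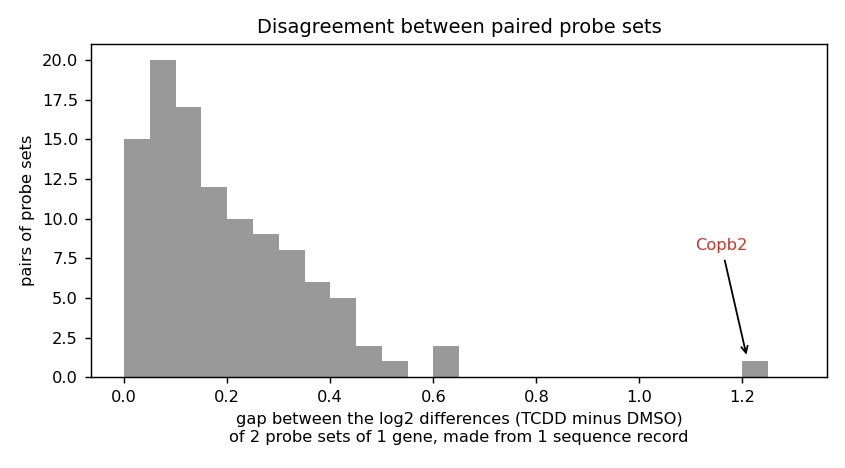
Gap between the log2 differences (TCDD minus DMSO) of 2 tested probe sets of the same gene made from the same GenBank record, for 108 pairs, as a histogram with the number of pairs on the vertical axis. The median is 0.15, and the pair of Copb2 stands alone at 1.21.

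Probe sets with the ending _r_at had larger median gaps between arrays of 1 group than those with the plain ending _at. The median absolute log2 gap between the 2 TCDD arrays was 0.26 over 205 tested _r_at probe sets and 0.21 over 4774 with the plain ending _at. Between the 2 DMSO arrays it was 0.43 for _r_at and 0.21 for plain _at. The median absolute TCDD-DMSO difference was 0.22 for _r_at and 0.14 for plain _at. Beyond 1 were 8 of the 4774 plain _at probe sets (0.168%) and 1 of the 205 with _r_at (0.488%). The latter was Copb2 93341_r_at, which was chosen for its difference. For that probe set the gap was 0.10 between the TCDD arrays and 0.38 between the DMSO arrays.

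Neither partner of Copb2 in the outer coat passed the limma test. Copa, the alpha subunit, which pairs with the beta-prime subunit in the coat, had signals of 517.7 and 644.4 on the TCDD arrays and 523.9 and 606.6 on the DMSO arrays. The log2 difference of 0.03 had a 95% interval of -0.39 to 0.46 (limma adjusted p 0.997), and replicate 2 was the higher array in both groups. Cope, the epsilon subunit, which stabilises the alpha subunit, had 312.6 and 331.1 with TCDD and 342.1 and 364.4 with DMSO. Both TCDD arrays of Cope were below both DMSO arrays, by a log2 difference of -0.13 (95% interval -0.54 to 0.29, limma adjusted p 0.997).

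In the inner coat, Copb1, the beta subunit, which contacts Arf1 on the membrane, had signals of 300.7 and 241.2 on the TCDD arrays and 283.2 and 245.0 on the DMSO arrays. The DMSO values lay inside the range of the TCDD values, and the log2 difference was 0.03 (95% interval -0.42 to 0.48). Copg1, the first of the alternative gamma subunits, had 104.5 and 124.6 with TCDD and 103.6 and 107.3 with DMSO at 94427_at. At 96936_at it had 219.3 and 222.2 with TCDD and 203.9 and 258.4 with DMSO. The differences, 0.10 and -0.05, had opposite signs, and the groups overlapped at both probe sets.

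Arcn1 encodes the delta subunit, archain. At its brightest probe set, 94514_s_at, signals were 255.9 and 198.5 with TCDD and 204.8 and 242.6 with DMSO, a log2 difference of 0.02 (95% interval -0.45 to 0.48). The dimmer 94512_f_at, with a mean of 47.5 just under the limit for the test, had 57.3 and 50.5 with TCDD and 40.5 and 41.6 with DMSO. Its TCDD arrays were the higher ones, by 0.29 on the log2 scale. The third probe set, 94513_r_at, stayed between 4.8 and 11.1 on all 4 arrays. Like those of Copb2, the probe sets 94512_f_at and 94513_r_at of Arcn1 come from a common GenBank record, and neither was bright enough for the comparison of pairs above.

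The zeta subunit, the smallest of the coat, has alternative forms. Copz1, the more widely used form, had signals of 307.7 and 372.9 on the TCDD arrays and 409.2 and 386.7 on the DMSO arrays at 95149_at. Both TCDD arrays were lower, with a log2 difference of -0.22 (95% interval -0.65 to 0.20, limma adjusted p 0.997). Its other probe set, 161319_at, was dim, with 13.2 and 12.7 with TCDD and 26.1 and 11.5 with DMSO, all stored as calendar days and turned back into signals. Copz2, the alternative form, had 167.8 and 141.1 with TCDD and 152.4 and 139.8 with DMSO, a difference of 0.07 with overlapping groups.

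Besides Copb2 93341_r_at, Cope 98930_at and Copz1 95149_at were lower on both TCDD arrays. Among the 8 tested probe sets of the other subunits, 2 were lower without overlap and 0 higher, where 14.6% of all tested probe sets were lower and 15.3% higher in this sense. The nearest array pairs of Cope and of Copz1 each differed by -0.05. The 95% intervals of the 8 probe sets lay between -0.65 and 0.56. The difference between Copb2 and the other subunits was itself not tested. With 2 arrays against 2, the smallest two-sided p of an exact permutation test is 0.33, so none was run.

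**Figure D3:**
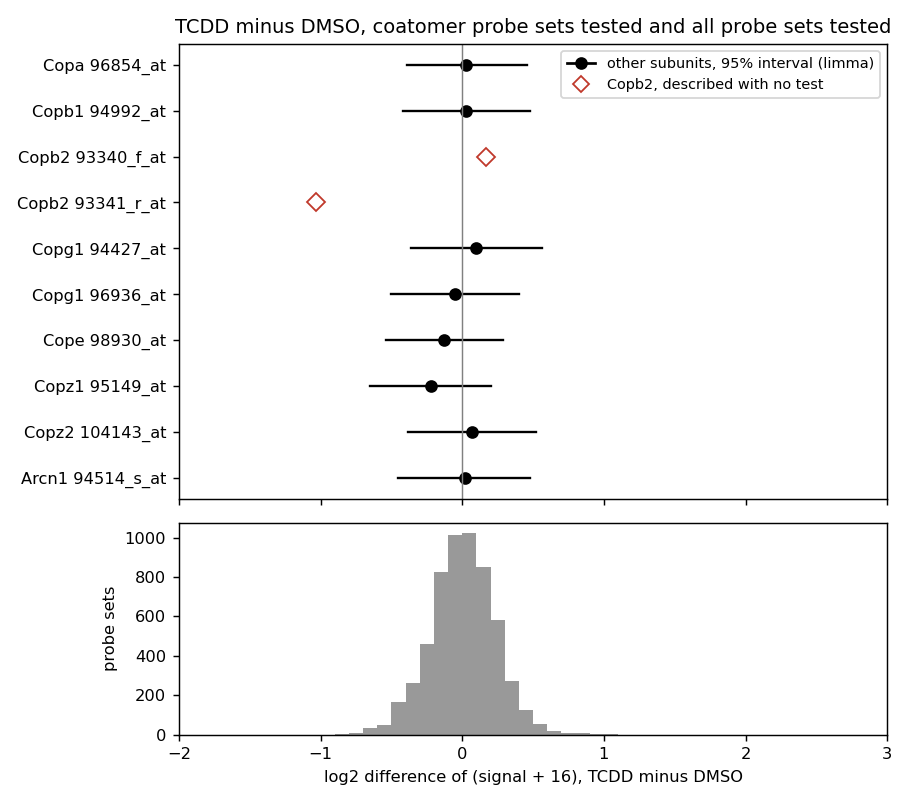
Log2 difference of signal + 16, TCDD minus DMSO, for the 10 tested coatomer probe sets (upper panel) above the distribution over all 5783 tested probe sets (lower panel, bins of 0.1). Circles with bars are the other subunits with their 95% limma intervals, between -0.65 and 0.56, and open diamonds are the probe sets of Copb2 at 0.17 and -1.03, shown with no interval.

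Across the 4 arrays the subunits did not form 1 common profile. In 8 of the 10 tested probe sets the step between replicate 1 and replicate 2 had the same sign in both groups. The share over all tested probe sets was not counted. Over all of them the deviations of same-numbered arrays from their group means correlated at 0.38, so the count is not read as a trait of the coatomer. The step was widest at Copb2 93340_f_at, where replicate 2 was lower by 0.74 on the log2 scale with TCDD and by 0.53 with DMSO. Copb1 and Copz2 were also lower on replicate 2 of both groups, whereas Copa and Cope were higher there. Copz1 95149_at and Arcn1 94514_s_at changed sign between the groups.

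**Figure D4:**
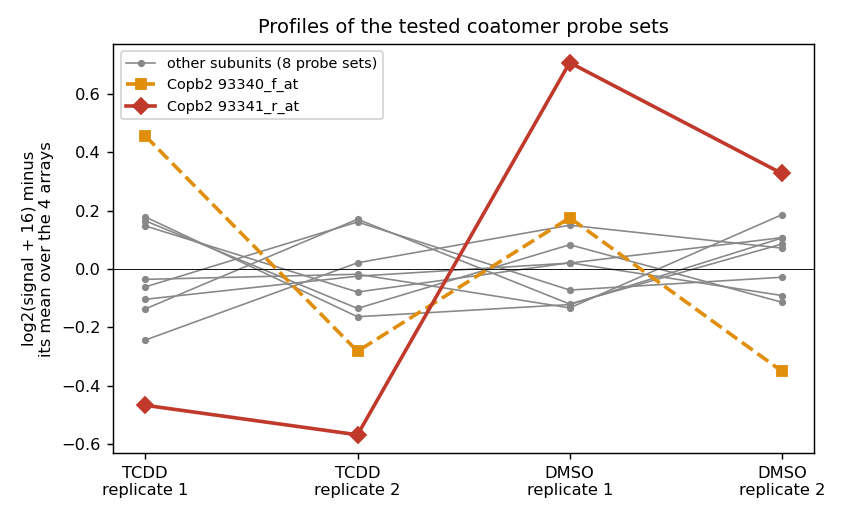
Log2(signal + 16) of each tested coatomer probe set minus its own mean over the 4 arrays, with the TCDD arrays on the left and the DMSO arrays on the right. The red line, Copb2 93341_r_at, is low on both TCDD arrays, the dashed orange line, Copb2 93340_f_at, is high on replicate 1 of both groups, and the 8 grey lines of the other subunits stay within a narrower band.

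Likeness to Copb2 93341_r_at was measured as the Euclidean distance between centred log2 profiles over the 4 arrays, among 5262 other tested probe sets with 1 symbol. The nearest 5 were Tspo2 (distance 0.32), Dcaf12 (0.33), Txnrd3 161284_r_at (0.34), Atp5pb (0.35) and Muc13 162041_f_at (0.40). Tspo2 encodes a translocator protein of red cell precursors, with 54.6 and 59.4 on the TCDD arrays and 123.5 and 91.4 on the DMSO arrays. The 4 measured red blood cell markers, 2 higher and 2 lower with TCDD, had a median log2 difference of 0.0046. Their summed signal was 3646 and 4824 on the TCDD arrays and 4470 and 4942 on the DMSO arrays. The brightest, Hba-a1, was the only 1 of the 4 without overlap, lower with TCDD by a log2 difference of -0.28. The part of red cells in this profile was not tested. Atp5pb, which encodes part of the mitochondrial ATP synthase, had 39.9 and 42.1 with TCDD and 84.8 and 74.3 with DMSO. Txnrd3 and Muc13 have another probe set each, both too dim for the test, with log2 differences of -0.34 and -0.10. None of the other coatomer probe sets was among these 5. Of those tested, Copz1 95149_at came closest at rank 666. Cope was at rank 1261, and the other probe set of Copb2 at rank 3987. Copb2 93341_r_at was chosen for its difference, so these distances largely restate how far each probe set was lower with TCDD. The ranks are a description and add nothing to the differences given above.

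Genes that work with the coatomer were counted in 6 related lists, with the brightest tested probe set standing for each gene. Of their 116 listed genes 70 were measured, and 0 passed the limma test, where 0.0435% of 4595 genes did. Both TCDD arrays were lower in 12 of the 70 (17.1%) and higher in 5 (7.14%), beside 14.1% lower and 16.1% higher over all genes. Over all 4595 genes the difference was below 0 in 2166 and above 0 in 2429, with a median of 0.02.

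Arf GTPases with their exchange factors and GTPase-activating proteins, which put the coat on and take it off, had 7 of 9 measured genes lower and a median log2 difference of -0.22. Arf3, named after its values were seen, was among the lower at -0.38, but its other tested probe set lay 0.68 higher, above 0. Arfgap2, a GTPase-activating protein that binds coatomer and acts in uncoating, had signals of 290.6 and 214.3 with TCDD and 367.0 and 398.2 with DMSO. Its log2 difference was -0.58 (95% interval -1.04 to -0.12), with an unadjusted limma p of 0.0175 and an adjusted p of 0.997. Gbf1, the exchange factor that loads Arf1 with GTP at the early Golgi, had 90.2 and 82.2 with TCDD and 121.7 and 103.4 with DMSO, a log2 difference of -0.33. In these genes and in Arf5 (-0.22) and Arfgap3 (-0.29), named after their values were seen, both TCDD arrays were the lower ones, 4 of the 9, beside 14.1% of all genes. Arf1 itself differed by -0.03, and Arf6, a GTPase of the plasma membrane, by 0.42 with overlapping groups. The list median was -0.08 without TCDD replicate 1 and -0.27 without TCDD replicate 2.

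The p24 cargo proteins and cargo receptors, which ride in COPI vesicles, had 6 of 10 measured genes higher, 4 lower and a median of 0.02. Tmed9, a p24 protein, had 488.8 and 388.0 with TCDD and 382.1 and 341.4 with DMSO, and was the list's only gene with both TCDD arrays higher. Surf4, a cargo receptor, differed by -0.21, and so did Kdelr2, a receptor that returns proteins with a KDEL tail. These were the list's 2 genes with both TCDD arrays lower.

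The COPII coat, which buds vesicles in the forward direction from the endoplasmic reticulum, had 8 measured genes and a median of 0.02. Sec23a, an inner coat subunit needed for collagen export, had 520.2 and 340.4 with TCDD and 337.8 and 362.6 with DMSO, so that its difference of 0.26 rests on TCDD replicate 1, and its other tested probe set, 93711_at, differed by -0.12. Sec23b differed by -0.16 and Sec16a, a scaffold of exit sites, by 0.07. In Sec24c, named after its values were seen, the groups did not overlap, though the difference was only 0.01.

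Clathrin and its adaptor complexes, relatives of the inner coatomer, had 10 of 15 measured genes higher and a median of 0.09. Ap3d1, a large subunit of the adaptor for lysosome-related organelles, had 391.1 and 348.0 with TCDD and 254.2 and 264.5 with DMSO. Its log2 difference was 0.48 (95% interval 0.06 to 0.90), with an unadjusted limma p of 0.0279 and an adjusted p of 0.997. Cltc, the clathrin heavy chain gene, differed by 0.23 without overlap and Ap2m1 by 0.26 with overlap. Clta (-0.16), Ap1b1 (-0.20) and Ap2a1 (-0.17), named after their values were seen, were lower on both TCDD arrays.

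Tethers and SNAREs of the route between endoplasmic reticulum and Golgi had 9 of 15 measured genes lower and a median of -0.03. Cog1, a subunit of a Golgi tether that works with COPI vesicles, had 60.8 and 66.1 with TCDD and 121.3 and 74.0 with DMSO, a log2 difference of -0.49 (limma adjusted p 0.997). Its DMSO replicate 1 stood well above the other arrays, and the difference was -0.18 without it and -0.79 without DMSO replicate 2. Bet1l, a Golgi SNARE gene, differed by -0.30 and Ykt6, another SNARE gene, by -0.39. Ykt6 groups overlapped, while Bet1l, Cog1 and Napa (-0.20, named after its values were seen) had both TCDD arrays lower.

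Endoplasmic reticulum chaperones and genes of the unfolded protein response, which answers to faults in this traffic, had 9 of 13 measured genes higher and a median of 0.06. Hspa5, the main chaperone of the compartment, had 1332.9 and 1028.2 with TCDD and 1135.7 and 1190.9 with DMSO. The disulfide isomerase genes Pdia4 and Pdia6 differed by 0.43 and -0.40, with overlapping groups, and other tested probe sets of Pdia6 gave 0.23 and -0.20. The difference of Pdia4 was 0.03 without DMSO replicate 1 and 0.82 without DMSO replicate 2, and that of Pdia6 was 0.21 without TCDD replicate 1 and -1.01 without TCDD replicate 2. Dnajc3, a co-chaperone gene and the list's only one with both TCDD arrays higher, differed by 0.24 and by 0.23 at a second tested probe set.

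**Figure D5:**
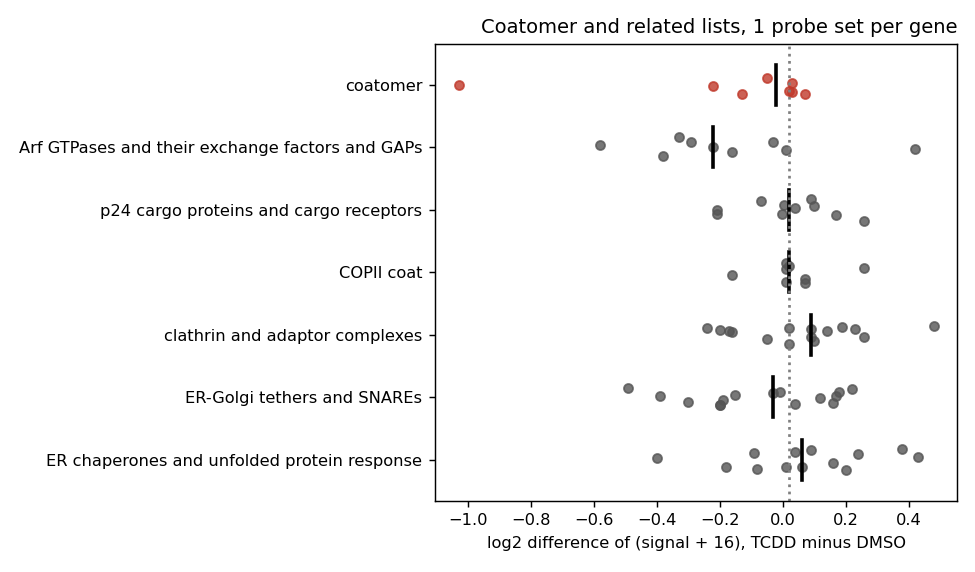
Log2 difference of signal + 16, TCDD minus DMSO, of the coatomer genes (red) and of the 70 measured genes in 6 related lists (grey), with 1 probe set per gene, the list median as a black bar and the median of all 4595 genes, 0.02, as a dotted line. Copb2 is drawn at -1.03, the value of its brighter probe set 93341_r_at, which was chosen for its difference. Its other probe set, 93340_f_at, at 0.17, is not drawn. The other coatomer genes sit near 0, and the list of Arf GTPases and their regulators has the lowest median, -0.22.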

How the data were processed

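The authors hybridised 1 murine U74v2A array per pooled RNA sample and, per the labels, used Affymetrix Microarray Suite 5.0 with a target signal of 100. The deposited values are MAS5 intensities on a linear scale, 1 per probe set and array. Detection calls and probe-level files were not used here, and precision is limited by the 4 arrays. Of 49952 deposited cells, 18515 (37.1%) held a calendar day serial (38718 to 38990) and were turned back into day.month signals, after which the trimmed mean was 100.05 on each array. Gene symbols came from the platform annotation, and 10839 of 10855 with 1 symbol matched the GRCm38.p6 gene table by Entrez ID.

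TCDD was compared with DMSO on log2(signal + 16) by limma (version 3.58.1 under R 4.3.3, functions lmFit and eBayes with a trend) over 5783 probe sets whose signal averaged 50 or more, with Benjamini-Hochberg adjustment and a threshold of 0.05. The code was run on data simulated with independent noise from the fitted variances. Such data share the assumptions of the fit, so the run cannot show how well these hold for the arrays. p-values rest on the spread between pools, most of it borrowed from the trend over all probe sets (8.8 of 10.8 degrees of freedom). All 13 coatomer probe sets are named, with up to 3 genes of smallest p per related list, the 5 nearest profiles and Cyp1a1. Other genes are named outside this rule, among them Arf1, Hspa5, the cell type markers and those marked as named after their values were seen. The rule's other checks of exposure, Cyp1b1 and Tiparp, differed by 2.28 (limma adjusted p 9.18e-04) and 1.53 (limma adjusted p 0.167). The members and lists were chosen with earlier results of these data known. The 12 alternatives covered the offset, the filter, quantile normalisation, the serials, the variance trend, the replicate block and each array left out.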

Additional observations from a re-analysis of the deposited data

How the results depend on the processing

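Over the 12 alternatives the log2 difference of Copb2 93341_r_at lay between -1.22 and -0.84, which is no sign of stability, since it was chosen for being lower in every array pair. Copb2 93340_f_at ranged from -0.19 to 0.54, and 0 of the other subunits' probe sets passed the limma test in any of them. Over all probe sets the count of calls was 4, against 2 without the filter and 2 to 5 with 1 array left out. With a replicate block it was 32. Deviations of same-numbered arrays correlated at 0.38, but with 2 numbers and no label that pairs them the numbers were not taken as pairs, and with the block limma used 1 shared variance trend for all probe sets. The median of the coatomer probe sets, 0.02, was -0.01 after quantile normalisation and between -0.09 and -0.03 with 1 array left out. Leaving out 1 array also raised the count without overlap, 3 of 10, to between 5 and 8. The share over all probe sets rose to between 59.5% and 69.6%, since fewer array pairs have to agree. The coatomer count includes Copb2 93341_r_at, which was chosen for being lower in every array pair and so stays in it. The small differences changed sign most easily. After quantile normalisation Arcn1 94514_s_at was at -0.01 and Copb1 at -0.0045. With 1 array left out, the ranges were -0.16 to 0.19 for Arcn1 94514_s_at, -0.12 to 0.19 for Copa, -0.12 to 0.18 for Copb1, -0.01 to 0.21 for Copg1 94427_at, -0.21 to 0.11 for Copg1 96936_at and -0.04 to 0.18 for Copz2. Among named genes of related lists they were -1.01 to 0.21 for Pdia6, -0.10 to 0.24 for Sec16a, -0.04 to 0.55 for Sec23a, -0.34 to 0.02 for Sec23b and -0.85 to 0.08 for Ykt6, and without a change of sign 0.13 to 0.72 for Arf6, -0.79 to -0.38 for Arfgap2, 0.01 to 0.50 for Ap2m1 and -0.45 to -0.14 for Bet1l. The median of the tethers and SNAREs was 0.05 with the filter at 100, over 10 genes, and between -0.17 and 0.05 with 1 array left out, the lowest without DMSO replicate 2. That of the endoplasmic reticulum chaperones was between 0.01 and 0.17, the highest without TCDD replicate 2. The cause of these shifts was not tested. Dim signals limit Copz1 161319_at and Arcn1 94513_r_at, whose values are all repaired serials.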
